A study of Mus musculus with 14 samples.

Results

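The T cell receptor complex and its first signalling steps were followed through 10 genes, namely Cd3d, Cd3e, Cd3g, Cd247, Cd4, Cd8a, Cd8b1, Lck, Zap70 and Lat. They were chosen by name, and every probe whose accession RefSeq pairs with one of these symbols was read, which gave 18 probes. A probe was tested where at least 7 of the 14 arrays held it well above background, which 16 of these probes did, and each of the 10 genes kept at least 1 of them. All 10 genes were thus among the 24908 genes or unnamed transcripts tested, of which 14729 carried a symbol.

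The antigen-binding chains of the T cell receptor carry no signalling tail of their own, and the gamma, delta and epsilon chains of CD3 and the zeta chain encoded by Cd247 bring the tyrosine motifs that start the signal. CD4 and CD8 bind MHC class II and class I molecules and carry the kinase Lck to the receptor, where Lck phosphorylates these motifs. Zap70 docks on the phosphorylated motifs and in turn phosphorylates Lat, a membrane scaffold on which the downstream branches assemble, and in the spleen most of this machinery is found in T cells of the white pulp.

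Splenocytes were isolated from mice in the collagen-induced arthritis model, after lysis of red blood cells. Their RNA was labelled with Cy3 and hybridised to one-colour Agilent arrays, 1 array per mouse. All mice, between 10 and 14 weeks of age at immunization, had received complete Freund's adjuvant (CFA) with chicken type II collagen (CII) by the intradermal route, and spleens were collected 2 weeks after the first immunization. The 7 WT mice were purchased from an animal center. The 7 Sting gt/gt mice, called golden ticket (Tmem173gt), carry an ENU-induced variant of Sting and came from another laboratory, so genotype and source of the mice cannot be told apart. The paper states that the mice were bred and kept at a university facility, and does not say whether the 2 genotypes were littermates. Signals are given as log2 of the processed signal with the 75th percentile of each array set to 0. With 7 arrays per genotype, precision is limited. Between 31117 and 34400 probes were well above background in WT mice and between 30781 and 33620 in Sting gt/gt mice.

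The tissue label was checked against cell type markers. All 12 B cell markers, all 11 macrophage and monocyte markers, including Spic and Vcam1 of the splenic red pulp, and all 8 further T cell genes were well above background on all 14 arrays. The arrays were scanned on 2 days, with replicates 1 to 3 of both genotypes on scan day 1 and replicates 4 to 7 of both on scan day 2. The scan days shared neither mice nor slides. A scan day difference therefore cannot be told apart from a difference between these sets of mice, their handling or their slides. The slides did not cross the genotypes on scan day 2, where WT and Sting gt/gt mice sat on different slides, and only 2 of the 6 slides held both genotypes.

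The CD3 chains were well above background in every mouse. In the RefSeq table Cd3d lies between Cd3g and Cd3e, and Cd8a lies next to Cd8b1. As the 3 CD3 genes lie side by side and Cd3d rose and fell from mouse to mouse with most of the 10 genes, its neighbours included, the 250 bases before the start of the 3 CD3 genes are shown here, and a match is a description only. They are taken from RefSeq (GRCm38.p6) at chr9:44981536-44981785 on the plus strand for Cd3d, and on the minus strand at chr9:45009612-45009861 for Cd3e and chr9:44980432-44980681 for Cd3g. Capitals mark matches on either strand to 4 motifs. The ETS-type motif is spelled AGGAAG. The E-box is spelled CANNTG. The GATA-type motif has the letters AGATAA. For the RUNX-type motif the letters are TGTGGT.
Cd3d: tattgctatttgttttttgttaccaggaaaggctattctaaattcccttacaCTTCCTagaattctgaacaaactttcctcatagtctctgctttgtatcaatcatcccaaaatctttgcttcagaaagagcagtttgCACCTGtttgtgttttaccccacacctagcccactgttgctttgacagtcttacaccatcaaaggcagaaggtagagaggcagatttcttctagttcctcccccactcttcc
Cd3e: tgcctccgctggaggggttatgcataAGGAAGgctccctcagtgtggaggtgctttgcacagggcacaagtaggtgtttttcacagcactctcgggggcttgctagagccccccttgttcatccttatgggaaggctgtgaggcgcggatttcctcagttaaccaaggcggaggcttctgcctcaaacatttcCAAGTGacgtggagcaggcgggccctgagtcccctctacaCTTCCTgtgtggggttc
Cd3g: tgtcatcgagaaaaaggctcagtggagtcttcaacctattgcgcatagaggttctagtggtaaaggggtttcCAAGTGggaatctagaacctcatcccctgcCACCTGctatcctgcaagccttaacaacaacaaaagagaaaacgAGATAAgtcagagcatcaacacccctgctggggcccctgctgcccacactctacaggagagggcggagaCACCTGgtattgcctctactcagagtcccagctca
The E-box letters were found before all 3 genes, the ETS-type letters before Cd3d and Cd3e, and the GATA-type letters before Cd3g. Of 32851 promoters of the same length, 66.2% hold the E-box letters, 29.5% the ETS-type, 9.99% the GATA-type and 14.0% the RUNX-type letters, and no matches overlapped in the 3 sequences shown. The table holds 11 promoters of 8 of the 10 genes, all but Cd4 and Cd8b1, and of these 10 hold the E-box letters, 8 the ETS-type, 1 the GATA-type and 2 the RUNX-type letters.

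Cd3d, the delta chain, had a lowest log2 signal of 2.87, a median of 3.25 and a highest of 3.78 in WT mice, and 2.99, 3.39 and 3.65 in Sting gt/gt mice. The groups overlapped, and both the lowest mouse (WT replicate 6) and the highest (WT replicate 4) were WT. Its log2 fold change, Sting gt/gt against WT, was 0.051 with a 95% interval of -0.26 to 0.36 (adjusted p = 0.999 by limma, two-sided). The log2 signal of Cd3e, the epsilon chain, ran from 1.68 through a median of 2.12 to 2.27 in WT and from 1.90 through 2.08 to 2.21 in Sting gt/gt mice. All Sting gt/gt mice lay within the WT range, and WT replicate 6 was again the lowest. The log2 fold change was 0.015 with an interval of -0.20 to 0.23, which was the narrowest among the 10 genes in this fit. With scan day as a term the standard error of Cd4 (0.083) was below that of Cd3e (0.088).
Cd3g, the gamma chain, had a lowest log2 signal of 1.52, a median of 1.87 and a highest of 2.37 in WT mice, and 0.86, 1.87 and 2.21 in Sting gt/gt mice. The lowest value was that of Sting gt/gt replicate 7, and the other 6 Sting gt/gt mice lay within the WT range. Its log2 fold change was -0.13 (interval -0.55 to 0.28), which became 0.021 once Sting gt/gt replicate 7 was left out. Cd247, which encodes the zeta chain, ran from 2.26 through 2.45 to 3.12 in WT and from 2.03 through 2.72 to 3.04 in Sting gt/gt mice. The groups overlapped, and in both the 3 mice of scan day 1 were above the 4 mice of scan day 2. The log2 fold change was 0.029 (interval -0.36 to 0.42).

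Cd4 had a lowest log2 signal of 1.28, a median of 1.67 and a highest of 2.13 in WT mice, and 1.47, 1.73 and 2.15 in Sting gt/gt mice. Its groups overlapped almost fully, and the high values of both belonged to scan day 1. The log2 fold change was 0.047 (interval -0.31 to 0.40). Cd8a, the chain found in both forms of CD8, ran from -1.31 through -0.39 to 0.10 in WT and from -0.81 through -0.34 to 0.15 in Sting gt/gt mice. Here the low values of both groups belonged to scan day 1, with WT replicate 3 the lowest. Its log2 fold change was 0.12, the highest above 0 among the 10 genes, while Cd3g at -0.13 lay farther from 0, and its interval was -0.37 to 0.61. Cd8b1, the beta chain that marks CD8 of conventional cytotoxic T cells, ran from 1.58 through 2.07 to 2.65 in WT and from 1.89 through 2.18 to 2.43 in Sting gt/gt mice, so that the Sting gt/gt mice lay within the WT range. Its log2 fold change was -0.0051 (interval -0.36 to 0.35).
The coreceptor genes were also compared within each array, where the scaling between arrays drops out. A difference between signals of unlike probes is not a ratio of transcripts, so only its change between groups is read. Cd8a minus Cd4 differed by 0.072, Sting gt/gt against WT (exact permutation p = 0.837, two-sided, adjusted p = 0.837 over 2 tests). Cd8b1 minus Cd8a differed by -0.12 (exact permutation p = 0.378, adjusted p = 0.756). Over all arrays the genotypes overlapped in both. Cd8a minus Cd4 followed the scan day, from -3.44 to -2.63 on scan day 1 and from -1.96 to -1.26 on scan day 2, so the test over all arrays pools unlike days. On scan day 1 the Sting gt/gt mice lay at -2.89 to -2.63, above the WT mice at -3.44 to -2.91, a difference of 0.35 (exact permutation p = 0.1, the lowest that 3 against 3 mice can give). On scan day 2 the genotypes overlapped, with a difference of -0.14 (exact permutation p = 0.429).

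Lck, the kinase that opens the cascade, had a lowest log2 signal of 3.55, a median of 3.74 and a highest of 4.04 in WT mice, and 3.63, 3.85 and 4.08 in Sting gt/gt mice. The groups overlapped, and 5 of the 7 Sting gt/gt mice lay above the WT median. The log2 fold change was 0.071 with an interval of -0.16 to 0.30. Zap70 ran from 1.77 through 2.10 to 2.60 in WT and from 1.85 through 2.30 to 2.53 in Sting gt/gt mice. All Sting gt/gt mice lay within the WT range, and its log2 fold change was 0.037 (interval -0.27 to 0.35). The adaptor Lat ran from 1.32 through 1.66 to 1.92 in WT and from 1.103 through 1.69 to 1.77 in Sting gt/gt mice. Sting gt/gt replicate 1 was the lowest of all mice, and the other 6 Sting gt/gt mice lay within the WT range. Its log2 fold change was -0.027 (interval -0.31 to 0.26).

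**Figure D1:**
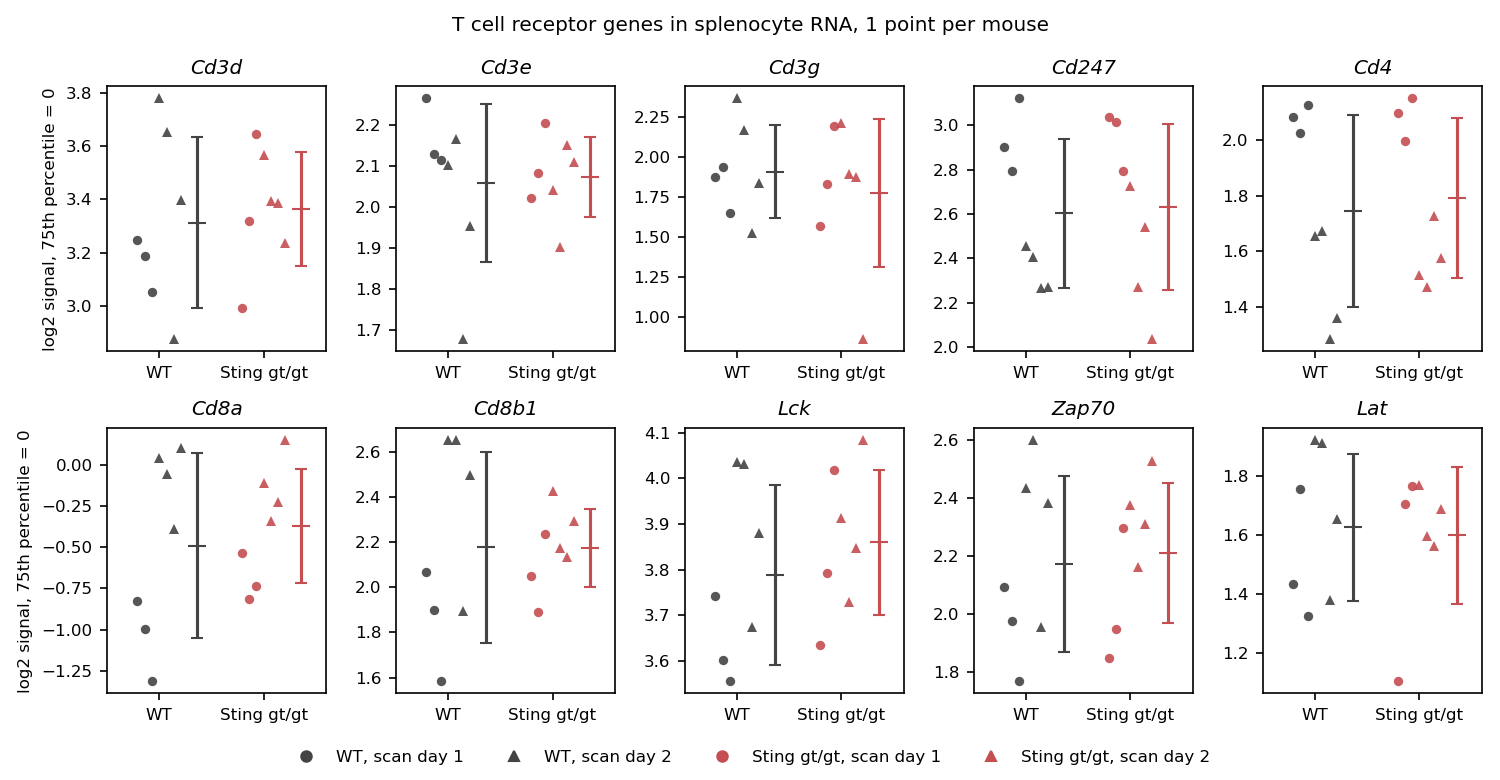
Log2 signal of the 10 genes (75th percentile of each array set to 0), each from its brightest tested probe, with 1 point per mouse, circles for scan day 1, triangles for scan day 2, and bars for the mean ± SD of 7 mice. WT and Sting gt/gt mice overlap for each gene, while for Cd247, Cd4 and Cd8a circles and triangles do not.

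By genotype, none of the 10 genes reached an unadjusted p under 0.05 by limma, where 882 of the 24908 tested genes (3.54%) did. The adjusted p of each of the 10 was 0.999, and the exact permutation p values of the single genes ran from 0.460 (Lck) to 0.973 (Cd8b1). The groups of none of the 10 were free of overlap, against 0.0482% of all genes. The median log2 fold change of the 10 genes was 0.033, beside 0.023 over all tested genes, and 7 genes were above 0 and 3 below. With no scaling between arrays 2 were above 0 and 8 below, so no direction is read from these signs. A p that misses the threshold does not show that the levels were equal, and the intervals give the sizes left possible by this fit, which holds no scan day term. At the lower end they reached a fold of 0.684 (Cd3g) and at the upper end 1.53 (Cd8a), so that for each of the 10 genes a doubling or halving lay outside the interval. In bulk splenocyte RNA, fewer T cells and less RNA per T cell cannot be told apart, and a shift of one against the other was not tested.
With the replicate number as a block, which follows the scan days, none of the 10 genes passed and 1408 genes did over all. With scan day as a term, none of the 10 passed beside 1803 genes, and the lowest adjusted p of the 10 was 0.775 (Cd8a). The log2 fold changes stayed the same in that fit, while the standard error fell from 0.23 to 0.12 for Cd8a, from 0.17 to 0.083 for Cd4 and from 0.18 to 0.11 for Cd247, so for these genes the intervals given here are wider than with scan day in the model. For Cd3g it stayed at 0.20. With slide as a fixed block, for which the 2 shared slides supply 3 WT arrays and 2 of Sting gt/gt mice, 1 of the 10 passed the unadjusted threshold beside 885 genes. That gene was Cd8a, with a log2 fold change of 0.43 and an adjusted p of 0.9997 by limma. Its difference was 0.38 within one of these slides and 0.50 within the other, and 0.17 with slide as a random block.

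**Figure D2:**
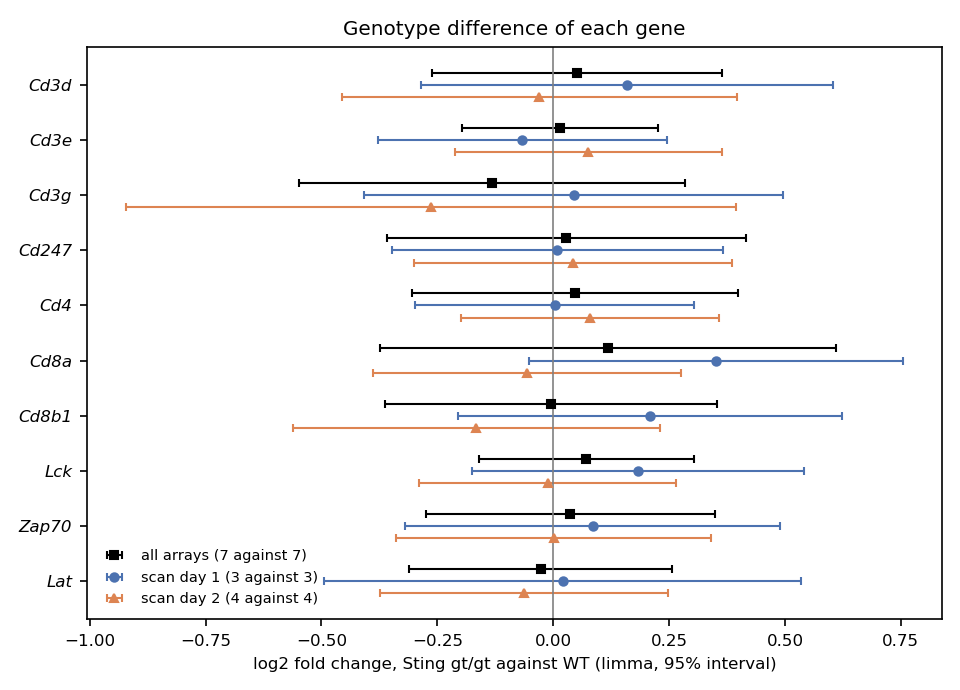
Log2 fold change of each gene, Sting gt/gt against WT (limma), with its 95% interval, over all arrays (squares, 7 against 7 mice), scan day 1 (circles, 3 against 3) and scan day 2 (triangles, 4 against 4). Every interval holds 0, and the largest single difference is that of Cd8a on scan day 1 at 0.35.

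Each scan day was then taken alone. On scan day 1, with 3 mice per genotype, none of the 10 genes passed an unadjusted p under 0.05, where 3.77% of all genes did, and 9 of the 10 log2 fold changes were above 0. The largest was that of Cd8a at 0.35 (interval -0.05 to 0.75), followed by Cd8b1 at 0.21 and Lck at 0.18. On scan day 2, with 4 mice per genotype, none of the 10 passed either, although 23.7% of all genes did. There, 4 log2 fold changes were above 0 and 6 below, from -0.26 (Cd3g) to 0.079 (Cd4), and those of Cd8a and Cd8b1 were -0.056 and -0.17. The difference of the genotype effect between the scan days was tested by an interaction term. It reached an unadjusted p under 0.05 for none of the 10 genes and for 18.4% of all genes, and the lowest adjusted p among the 10 was 0.359 (Cd8a, difference -0.41, standard error 0.23).

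Between the scan days, with genotype in the model, Cd4 and Cd247 were lower and Cd8a, Cd8b1 and Zap70 higher on scan day 2. At an adjusted p under 0.05 by limma, 3 of the 10 genes were higher on scan day 2, where 18.3% of all genes were, and 2 were lower, where 20.6% were. Of the 50 further tested pathway genes described below, 19 were higher and 2 lower. Cd4 had a log2 signal of 1.995 to 2.15 on scan day 1 and of 1.28 to 1.73 on scan day 2, a difference of -0.55 (standard error 0.084, adjusted p = 0.000157). Cd247 lay at 2.79 to 3.12 and at 2.03 to 2.72 (-0.57, standard error 0.11, adjusted p = 0.000748). Cd8a lay at -1.31 to -0.53 and at -0.39 to 0.15 (0.77, standard error 0.12, adjusted p = 0.000236). For these 3 of the 10 genes the scan days did not overlap, beside 15.8% of all genes.
Cd8b1 (0.39, adjusted p = 0.0356) and Zap70 (0.35, adjusted p = 0.0228) were higher on scan day 2 with days that overlapped. Cd3d, Lck and Lat were 0.17 to 0.18 higher on scan day 2, Cd3e differed by -0.12, a sign that turned with median centring, and Cd3g by 0.00079, and none of these passed the adjustment. Cd4, Cd247 and Cd8a kept their sign and their call with quantile normalization, median centring and no scaling. Cd8b1 and Zap70 lost their call with quantile normalization (adjusted p = 0.0762 and 0.0591) and with no scaling (0.0825 and 0.0635). With median centring the median scan day difference of all genes was 0.17, beside 0.0049 with the 75th percentile, and there Lck and Lat passed as well.
In the log2 table that the authors deposited, this difference was not found. No gene out of 24908 differed between the scan days there at an adjusted p under 0.05, where the scanner files gave 4554 higher and 5119 lower. Cd4 differed by 0.051, Cd247 by 0.012 and Cd3e by 0.11 in that table, with the sign turned, and Cd8a by 0.31 (standard error 0.12, adjusted p = 0.9999). How the table was scaled, and whether scan day was corrected for in it, is not given in the sources used here. In WT replicate 1, Cd4 lay at 2.083 and Cd8b1 at 2.068 in the scanner intensities, but at 10.55 and 10.97 in that table. A shift common to all probes of an array keeps their order, so the table does not differ from these intensities by such shifts alone. From WT replicate 1 (scan day 1) to WT replicate 4 (scan day 2), Cd4 fell from 2.08 to 1.65 in the intensities. In that table it rose from 10.55 to 10.79. If scan day was corrected for, the lack of a scan day difference may come from that correction. The genotype effect was small in that table too, with none of the 10 genes under an unadjusted p of 0.05 while 1928 genes were.

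Of the 10 genes, 6 had a further tested probe, namely Cd3d, Cd3e, Cd247, Cd8a, Lck and Zap70. For the genotype these probes gave log2 fold changes from -0.20 (Cd247) to 0.15 (Lck), and none of the 16 tested probes passed an unadjusted p under 0.05. The Cd247 probe was well above background in 5 WT and 5 Sting gt/gt mice only, so its -0.20 is not read as a size. For the scan day, the 5 of these 6 probes that were well above background on all 14 arrays were read. The further probe of Cd8a gave 0.76, close to 0.77 for the first, and those of Cd3d and Zap70 gave 0.13 and 0.22, the latter without passing (adjusted p = 0.167 by limma over all probes). The further probe of Cd3e was 0.43 higher (standard error 0.13), against -0.12, and that of Lck 0.56 higher (standard error 0.17), against 0.18. Both passed (adjusted p = 0.0147 and 0.0190 over all probes), where the first probes did not. So the sign of the scan day difference depended on the probe for Cd3e, and the call for Cd3e, Lck and Zap70. The further tested probe of Cd247 was well above background on 2 of 6 arrays of scan day 1 and 8 of 8 of scan day 2, so it was higher on scan day 2, against the direction of the first probe, and the size of that difference is not given. Another probe of Cd247, too dim to be tested, was well above background on 4 of 6 and 1 of 8, in the direction of the first. The second probe of Cd4 was well above background on 5 arrays and was not tested. No spot of the 18 probes was saturated.

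**Figure D3:**
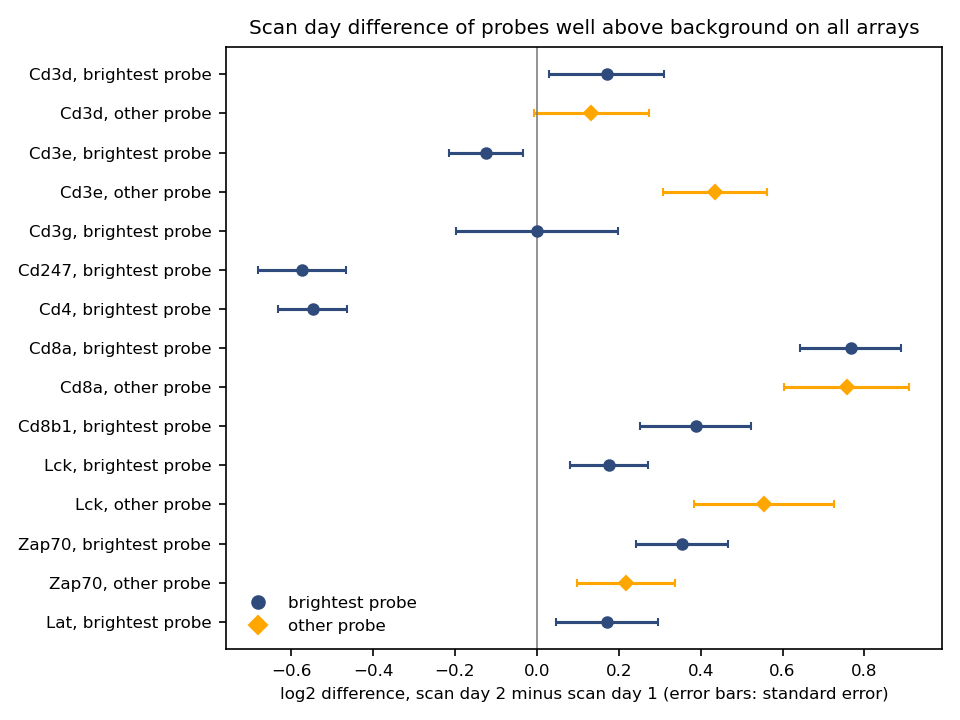
Log2 difference between scan day 2 and scan day 1, with its standard error, for the 15 probes of the 10 genes that were well above background on all 14 arrays (limma with genotype in the model, over 6 and 8 arrays). The brightest and the further probe lie on opposite sides of 0 for Cd3e and together near 0.77 for Cd8a.

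Mice of the same scan day differed in most of the 10 genes together. Once the mean of each scan day was removed, all 10 genes were above their mean in WT replicates 4 and 5 and all 10 were below it in WT replicate 6, by an average of 0.21, 0.19 and -0.32. The summed signal of the 8 further T cell genes, described below, was 44.1, 40.9 and 28.0 in these mice (28.0 to 44.1 on scan day 2). That of the 9 NK cell genes was 38.6, 45.4 and 31.8 (31.8 to 62.6 on scan day 2). In Sting gt/gt replicate 3, 9 of the 10 were above, by an average of 0.20, with Cd247 the exception. The WT mice of scan day 2 therefore held both the highest and the lowest of these averages, and the Sting gt/gt mice of that day lay between -0.11 and 0.11. As a description over 14 arrays, which share the scaling of each array, the Pearson r of each gene with the average of the other 9 was 0.94 for Cd3d, 0.85 for Cd8b1, 0.80 for Zap70, 0.74 for Lck and 0.71 for Cd3e. It was 0.38 for Cd8a and 0.099 for Cd247, which followed the others least. The value of Cd247 is that of its brightest probe. That probe gave an r of 0.29 with the further tested probe, which was well above background on 10 arrays. Whether the low r belongs to the gene or to the probe was not tested. Among the 45 pairs of genes, 39 had an r above 0, with Lck and Zap70 the most alike (0.91) and Cd247 and Cd8a the least (-0.22). Cd3d and its neighbours gave 0.75 with Cd3g and 0.69 with Cd3e, while Cd3g and Cd3e gave 0.28. With some genes elsewhere Cd3d gave more, 0.81 with Lat, 0.80 with Cd8b1 and 0.78 with Zap70. With others it gave less than with Cd3g, 0.74 with Lck, 0.55 with Cd4, 0.34 with Cd8a and 0.19 with Cd247. Its likeness was thus not particular to its neighbours. The neighbours Cd8a and Cd8b1 gave 0.75. Over all 24897 genes with a value on every array, the median r with the average of the 10 genes was -0.0046.
Among the 14712 other genes with a symbol, the 5 most like that average were Klk8 (r = 0.90), Il16 (0.90), Rhoh (0.90), Smad4 (0.88) and Cd6 (0.87), by Pearson r over 14 arrays with scan day means removed. Rhoh encodes a GTPase of blood cells that T cell receptor signalling uses, and Cd6 a surface receptor of T cells. Within scan day 1 these r lay between 0.71 and 0.97 over 6 arrays, and within scan day 2 between 0.87 and 0.93 over 8. The log2 fold changes of these 5 genes between the genotypes ran from 0.0013 (Cd6) to 0.072 (Rhoh).

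**Figure D4:**
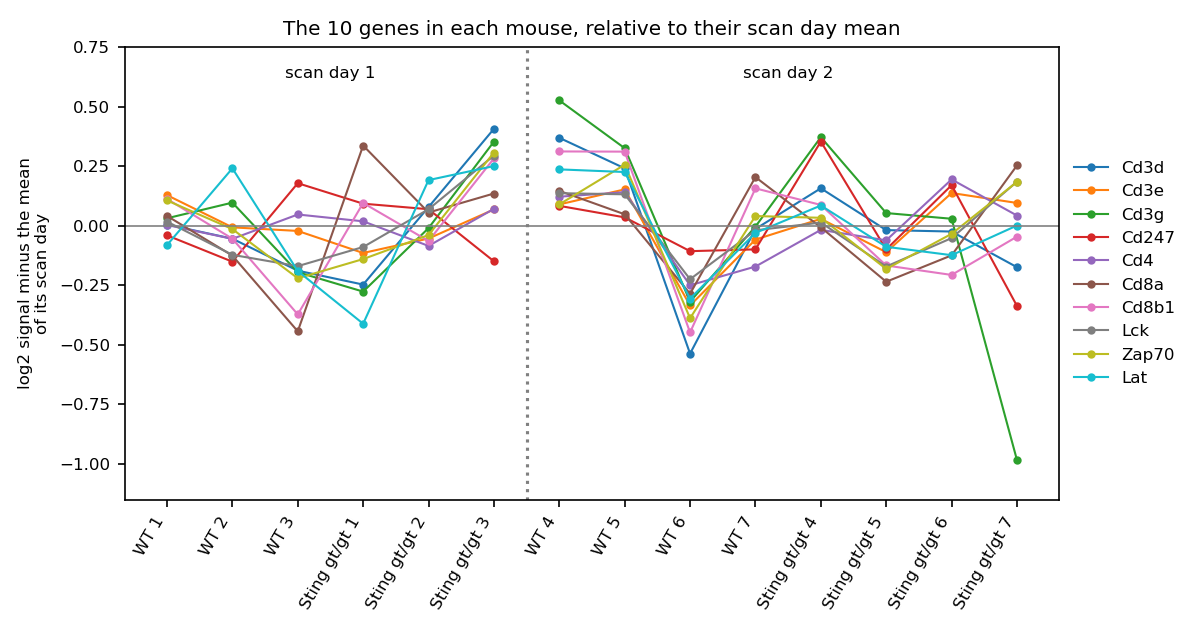
Log2 signal of the 10 genes in each mouse minus the mean of its scan day, with 1 line per gene and scan days separated by a dotted line. The lines lie together above 0 in WT replicates 4 and 5 and below 0 in WT replicate 6, and Cd3g falls far below the other lines in Sting gt/gt replicate 7.

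The wider pathway was read through 4 lists with 52 further genes, of which 50 were tested. None was higher and 1 was lower in Sting gt/gt mice at an unadjusted p under 0.05, 49 did not pass, where 3.54% of all genes passed, and the median log2 fold change was 0.022, beside 0.023 over all genes. Of the 20 tested proximal kinases and adaptors, Sh2d2a was the one that passed. It encodes an SH2 adaptor that binds Lck, and its log2 signal ran from -0.54 through -0.14 to 0.14 in WT and from -0.80 through -0.41 to -0.19 in Sting gt/gt mice. These groups overlapped, with a log2 fold change of -0.28 (standard error 0.13, exact permutation p = 0.0449, adjusted p = 0.999 by limma). It passed on neither scan day alone, at -0.12 on scan day 1 (unadjusted p = 0.449) and -0.40 on scan day 2 (0.0555). No pathway gene passed with the authors' table, with normexp background correction or with the replicate block. In the same list Trat1, which encodes an adaptor that stabilises the receptor complex, was at -0.29 (standard error 0.22).
None of the 15 phosphatases and other negative regulators passed, with a median of 0.021, Ubash3a at 0.28 (standard error 0.17) and Ptprc, the phosphatase CD45 that keeps Lck active, at 0.16 (standard error 0.18). None of the 8 costimulatory and coinhibitory receptors passed, with a median of -0.0087. Cd28 was at 0.12 (standard error 0.15) and Ctla4 at -0.12 (standard error 0.20), the latter well above background in 5 WT and 4 Sting gt/gt mice. None of the 7 tested genes of the branches to NF-kB and Ras passed, with a median of 0.041, Prkcq at 0.091 (standard error 0.15) and Malt1 at -0.086 (standard error 0.13). On scan day 2 alone, 6 of the 50 pathway genes were higher and 2 lower at an unadjusted p under 0.05, where 23.7% of all genes passed, and on scan day 1 none was, where 3.77% passed.

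Some of the 10 genes are also used outside T cells, Cd247, Lck, Zap70 and Lat by NK cells, Lat by platelets, Cd4 by some macrophages and dendritic cells, and Cd8a by some dendritic cells. Markers of these cells were therefore set beside them, as counts of genes at an unadjusted p under 0.05 and as the summed signal of each list, in units of the 75th percentile. None of the 8 further T cell genes passed, their median log2 fold change being -0.030. Of the 8, 7 were below 0, 6 with quantile normalization and in the authors' table, and all 8 with no scaling. Their summed signal ran from 28.0 through a median of 35.6 to 44.1 in WT and from 27.7 through 32.4 to 38.4 in Sting gt/gt mice, with Ccr7 the most abundant. None of the 9 NK cell genes passed, but all 9 were above 0 under each scaling and in the authors' table, from 0.084 to 0.31 with a median of 0.16, and their sum was 26.3 through 33.5 to 45.4 in WT and 30.7 through 41.3 to 62.6 in Sting gt/gt mice, Gzma being the most abundant. The 11 macrophage and monocyte genes (median 0.054, most abundant Hmox1), the 7 dendritic cell genes (-0.0019, Siglech) and the 5 platelet genes (0.030, Pf4) held none that passed. The macrophage and platelet sums ran from 239 through 247 to 304 and from 123 through 148 to 182 in WT, and from 222 through 292 to 327 and from 119 through 160 to 173 in Sting gt/gt mice. The dendritic cell sums followed the scan day, from 209 to 224 in WT and 204 to 258 in Sting gt/gt mice on scan day 1, and from 60.5 to 74.9 and 55.5 to 63.0 on scan day 2.
With the scan days, along which Cd4, Cd247 and Cd8a differed, 6 of the 9 NK cell genes were higher and 1 lower on scan day 2 at an adjusted p under 0.05, where 18.3% and 20.6% of all genes were. Of the 7 dendritic cell genes 2 were higher and 1 was lower, and Siglech, a marker of plasmacytoid dendritic cells, changed by -2.19 on the log2 scale. The part of these cells in the scan day differences of the T cell receptor genes was not tested.
Over all arrays, where 3.54% of all genes passed in either direction, 1 of the 12 B cell genes was lower in Sting gt/gt mice, namely Ebf1 at -0.34 (standard error 0.14), with a list median of -0.16 and Cd79b as the most abundant. Of the 12, 11 were below 0, also with quantile normalization, median centring and the authors' table, and all 12 with no scaling. Their sum ran from 155 through 210 to 270 in WT and from 159 through 181 to 229 in Sting gt/gt mice. On scan day 2 alone 7 of the 12 B cell genes were lower in Sting gt/gt mice and the median was -0.47, where 23.7% of all genes passed in either direction. On scan day 1 none was lower and 1 was higher, with a median of 0.21, where 3.77% of all genes passed. Of 10 stress and immediate early genes 2 were lower over all arrays, again beside 3.54% of all genes, Hspa1b at -0.58 (standard error 0.25) and Hspa8, also the most abundant, at -0.22 (standard error 0.092), with a median of -0.16. None of the 10 tested neutrophil genes (median 0.16, most abundant S100a9) passed, and 9 were above 0. The medians of the summed signals in WT and Sting gt/gt mice were 112 and 97.2 for the stress genes. In WT mice the neutrophil sums followed the scan day, from 2017 to 2081 on scan day 1 and from 1154 to 1311 on scan day 2. In Sting gt/gt mice the days overlapped, from 1742 to 2631 and from 1041 to 1840. The median log2 fold change of the list turned from -0.099 on scan day 1 to 0.33 on scan day 2.
None of the 5 erythroid genes read passed over all arrays, but all 5 were below 0 under each scaling and in the authors' table, from -0.42 to -0.17 with a median of -0.28, the farthest from 0 among the marker lists. On scan day 2 alone 3 of the 5 were lower, beside 23.7% of all genes in either direction, and on scan day 1 none was, beside 3.77%. Their sum ran from 384 through 456 to 587 in WT and from 299 through 371 to 648 in Sting gt/gt mice, with Slc4a1 the most abundant. None of the 7 plasma cell genes passed over all arrays (median 0.15, most abundant Jchain), where opposite scan days were pooled. Their sum was 97.5 to 110 in Sting gt/gt and 115 to 123 in WT mice on scan day 1, but 159 to 222 and 116 to 150.1 on scan day 2, where 4 of the 7 genes were higher, beside 23.7% of all genes in either direction. On scan day 1, 1 was lower, beside 3.77%. Over all arrays none of these marker genes passed the adjustment for genotype. For 1 plasma cell gene the genotype effect differed between the scan days at an adjusted p under 0.05, beside 122 of all 24908 genes. That count over all genes was 145 with quantile normalization, 68 with median centring, 0 with no scaling and 110 in the authors' table. The part of these cells in the values of the 10 genes was not tested.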

How the data were processed

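The authors made the intensity values of the 14 arrays with Agilent Feature Extraction 11.0.1.1, which subtracts a spot's background without scaling one array to another. They also deposited a table of log2 values, and how it was scaled or centred is unknown. Its correlation with log2 intensity was 0.997 to 0.999 and its column medians were 5.49 to 5.52.

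Outlier-flagged spots were dropped, log2 signals averaged per probe, and the 75th percentile over probes subtracted. Taking it over spots was an alternative chosen after seeing the data. Accessions paired 32994 of 56605 probes with a RefSeq symbol (GRCm38.p6). Of a gene's tested probes (31766 in all) the brightest on average stood for it. Genotypes were compared by limma 3.58.1 in R 4.3.3 (lmFit and eBayes, two-sided, no covariates), with Benjamini-Hochberg adjustment over 24908 genes. Scan day and its interaction with genotype were fitted likewise, and single genes were also compared by exact permutation. Simulated arrays were used to test the steps. Python 3.11.15, numpy 2.4.6, pandas 2.3.3, scipy 1.17.1 and matplotlib 3.10.9 were used.

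Arrays of the same replicate number deviated together across genes (correlations 0.16 to 0.53). With scan day means removed the correlations were -0.41 to 0.25, and replicates 1, 2, 5 and 7 stayed at 0.25, 0.13, 0.19 and 0.18. Removing these means lowers such correlations by itself, so how much of the shared deviation followed the scan day was not tested. No arrays were identical (correlations 0.962 to 0.993). Genes were named by rule: the 10 members, pathway genes at an unadjusted p under 0.05 or with the 2 largest changes of a list, marker genes at that p or most abundant in a list, and the 5 most like the average. Fyb1 was matched under the symbol Fyb, Carmil2 and Ly6g were paired with no probe, and Pag1 was too dim to be tested. For normexp (offset 50) the median spot signal was used. Alternatives covered scaling, background, the deposited table, dim and flagged spots, choice of probe, a t-test, scan day, replicate number, slide and single arrays left out. The result of 1 marker gene is not reported here. The members and lists were chosen with earlier results of these data known.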

Additional observations from a re-analysis of the deposited data

Results flagged for a closer look

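A mouse far from the others of its group was looked for in each group of the 10 genes, of their further probes and of the named pathway and marker genes. Chance alone gives such a mouse in about 1 in 20 groups, or 3.6 of the 72 looked at, and 2 were found. In Sting gt/gt mice, the Lat signal of replicate 1 was 1.103 on the log2 scale, below the other 6 mice at 1.56 to 1.77, and with this mouse left out the log2 fold change of Lat was 0.055. The Cd79b signal of Sting gt/gt replicate 3 was 6.35, above the others at 5.63 to 5.94.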

How the results depend on the processing

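The log2 fold changes of the 10 genes were near 0, and their signs turned with many settings. By scaling, Cd3e was at -0.000049 with quantile normalization and -0.0027 with median centring. With no scaling Cd3d was at -0.0085, Cd3e at -0.045, Cd247 at -0.031, Cd4 at -0.013 and Zap70 at -0.022. In the authors' table Cd3e was at -0.0014. The mean of its probes put Cd247 at -0.084, and its other probe at -0.20. That other probe was well above background in 5 WT and 5 Sting gt/gt mice only, so neither value is read as a size. The 3 genes higher on scan day 2 became 1 with quantile normalization, 5 with median centring, 1 with no scaling and 0 in the authors' table, where the 2 lower became 0. Of all 24908 genes, the 4554 higher became 5574, 7844, 3487 and 0 in these settings, in the same order. The 5119 lower became 4545, 3371, 4332 and 0.

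With slide as a random block, Cd3e was at -0.020, Cd8b1 at 0.044 and Zap70 at -0.0079. As a fixed block, slide gave Cd3d -0.013, Cd3e -0.11, Cd4 -0.031, Cd8b1 0.17, Zap70 -0.029 and Cd8a 0.43, and 1 of the 10 genes passed the unadjusted threshold. Within the first shared slide Cd3d was at -0.22, Cd3e at -0.18, Cd8b1 at 0.066, Lck at -0.037 and Zap70 at -0.19. The median of the 10 genes was -0.11 there and that of the pathway genes -0.21. Within the second, Cd3e was at -0.032, Cd3g at 0.18, Cd247 at -0.11, Cd4 at -0.13, Cd8b1 at 0.31 and Lat at 0.38. Both medians lay above 0 in this slide, at 0.21 for the 10 genes and 0.14 for the pathway genes.

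On scan day 1 alone Cd3e was at -0.067, Cd3g at 0.044, Cd8b1 at 0.21, Lat at 0.020 and Cd8a minus Cd4 at 0.35. On scan day 2 alone Cd3d was at -0.030, Cd8a at -0.056, Lck at -0.012 and Cd8a minus Cd4 at -0.14. Scan day as a term with the array of Sting gt/gt replicate 7 left out, and the 75th percentile over spots, were chosen after seeing the data. The former gave Cd3e -0.0011, Cd3g 0.031 and Cd8b1 0.0026, and the latter turned no sign of a genotype effect.

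Of all genes, 882 passed the unadjusted threshold. The count was 1928 in the authors' table, 1803 with scan day as a term and 1984 with that term and replicate 7 left out, 1408 with the replicate block, 439 with slide as a random block and 5911 on scan day 2 alone. The count of pathway genes that passed, 1 in the main fit, became 0 with normexp, the authors' table, no filter on dim probes, the mean of probes, the replicate block, slide as a random block and scan day 1 alone. It became 2 with slide as a fixed block and with scan day as a term without replicate 7, and 8 on scan day 2 alone, where Sh2d2a, the gene of the main fit, did not pass.

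With each array left out in turn, Cd3d ran from -0.022 to 0.13, Cd3e from -0.049 to 0.049, Cd3g from -0.21 to 0.021, Cd247 from -0.039 to 0.13, Cd4 from -0.030 to 0.11 and Cd8a from -0.019 to 0.22. Cd8b1 ran from -0.10 to 0.074, Lck from 0.032 to 0.11, Zap70 from -0.030 to 0.11, Lat from -0.078 to 0.055, Cd8a minus Cd4 from -0.13 to 0.23 and Cd8b1 minus Cd8a from -0.19 to -0.057. The median of the 10 genes ran from -0.029 to 0.054 and that of the pathway genes from -0.032 to 0.074. None of the 10 passed in any of these fits, 0 to 2 pathway genes did, and 494 to 1963 of all genes did. Among Sting gt/gt mice, leaving out replicate 6 gave 494, replicate 5 gave 530 and replicate 1 gave 1963. The cause was not tested.

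With 7 mice per genotype, small differences are not resolved, and the intervals give what remains possible. Although the mice were kept at a university facility, genotype cannot be told apart from their source, nor, on scan day 2, from the slide. Cell numbers were not measured on these samples, so RNA per cell and cell composition cannot be told apart. The scan day difference was found in the scanner intensities and not in the authors' table, so values of Cd4, Cd247 and Cd8a from different scan days depend on which of these is used.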
